A study of Solanum lycopersicum with 6 samples.

Results

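Lipoxygenases insert oxygen into polyunsaturated fatty acids, and the enzymes are grouped by the carbon they attack. The products of 13-lipoxygenases feed several branches. Hydroperoxide lyase cleaves them to the aldehydes hexanal and hexenal, which give tomato its green aroma. Allene oxide synthase instead leads to jasmonate, a hormone of wounding and development. The 9-lipoxygenases make other oxylipins, and several lipoxygenase genes are known to be expressed in tomato fruit. The 6 genes described here are 5 lipoxygenase genes, LOXA (Solyc08g014000.3), LOXB (Solyc01g099190.3), LOXC (Solyc01g006540.3), LOXD (Solyc03g122340.3) and LOXF (Solyc01g006560.3), and the hydroperoxide lyase gene HPL (Solyc07g049690.3). They were chosen by identifier, and all 6 of 6 have a row among the 8703 genes of the table.

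Pericarp, the fleshy wall of the fruit, was taken at 38 days after anthesis from greenhouse tomato (Solanum lycopersicum) in the Ailsa Craig background. There were 3 libraries from wild-type fruit (WT) and 3 from transgenic lines labelled jmj7. The targeted gene encodes a histone demethylase, per the series title, and the question is its place in ripening. The sources used here do not give how the lines were made, how many there were or which promoter was used. The level of the target gene was not analysed here, so it does not check the labels. The jmj7 columns carry the prefix JQ, which no label uses. WT names the other group, so the JQ columns were read as jmj7, and every direction below rests on this. The authors had kept only genes that they called different, with an absolute log2 fold change above 1, so a call here is no independent evidence. A listed gene with no row was not among the genes they kept.

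The FPKM values (fragments scaled by gene length and library total) imply library totals of 20278400, 19005739 and 23188547 reads in WT and 27661614, 19758948 and 20521453 in jmj7. The genes of the table took 39.5% to 39.7% of these totals in WT and 55.1% to 55.4% in jmj7. Markers of ripe fruit differed between the groups. RIN, the MADS-box regulator of ripening, had 13.1 to 20.6 normalized counts in WT and 25146 to 26461 in jmj7. PG2a, the polygalacturonase of ripe fruit, had 2 to 6 reads per WT library and 512240 to 675936 per jmj7 library. Both groups were of equal age, so ripening stage and other effects of the genotype cannot be told apart. In such bulk samples, fewer cells of a type and less RNA per cell cannot be told apart either. Of 3 epidermis marker genes kept, 2 have a row, CD1 (Solyc11g006250.2) and Solyc08g081220.1. The other, CER6, has no row, so it was not among the genes that the authors called different. The reference does not hold the symbol listed for Solyc08g081220.1. Both genes fell to 0 reads in jmj7, and their summed FPKM was 151 to 165 in WT. Whether epidermis was lost cannot be told from these 2 selected genes, and their part in the values below was not tested.

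Of the 6 genes, 3 rose and 3 fell in jmj7. LOXC and LOXB, each with a high level in jmj7, rose 962-fold and 8.32-fold, and HPL rose 2.02-fold. LOXA fell 5.65-fold, LOXD 8.00-fold and LOXF 51.3-fold. The 5 lipoxygenase genes kept their direction under every scaling of the libraries that was tried, while HPL turned to -0.025 on the log2 scale, with no call, when libraries were scaled by the reads within the table. All 6 passed edgeR's quasi-likelihood test at an adjusted p under 0.05, as did 100% of the 7622 genes tested. Over those genes 37.2% were higher and 62.8% lower, and the median log2 fold change was -1.43, against -0.74 over the 6. When size factors were recomputed over the whole table, 47.3% of the genes then called were higher. The normalized counts of the groups did not overlap for any of the 6, nor for 99.7% of all genes tested.

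**Figure D1:**
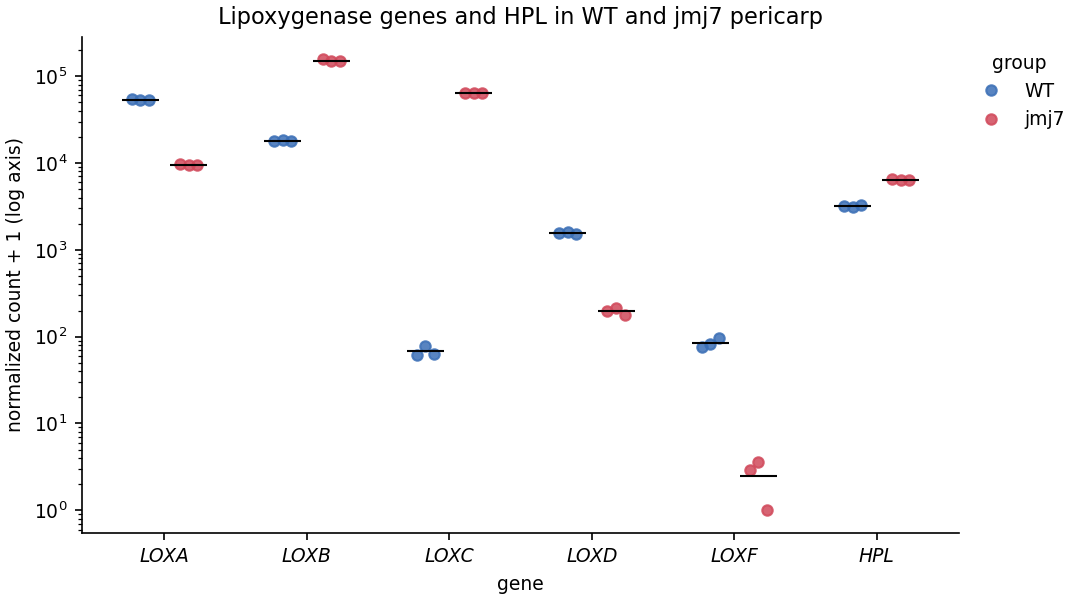
Normalized count plus 1 on a log axis for each gene; points are the 3 libraries of each group and black lines the group means. LOXC stands at 60.3 to 76.8 normalized counts in WT and 63669 to 63890.2 in jmj7, and LOXF has 0 reads in jmj7 replicate 3.

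LOXC encodes a chloroplast 13-lipoxygenase that is required for fatty-acid-derived fruit volatiles. In WT replicates 1, 2 and 3 it had 60.3, 76.8 and 62.6 normalized counts, which are reads divided by the library's size factor. In jmj7 it had 63890.2, 63669 and 63689 normalized counts. Every jmj7 library stood far above every WT library, and the coefficient of variation was 0.192% in jmj7, against 13.4% in WT. The WT values rest on 70, 82 and 82 reads, and the jmj7 values on 68091, 48355 and 50334 reads. Counting error is thus larger in WT, and the 2 coefficients do not compare the spread of expression. The log2 fold change was 9.91 ± 0.0944 (SE, n = 3 per group; edgeR adjusted p = 5.69e-49). In FPKM the level went from 1.32 ± 0.166 to 857 ± 2.52 (SD, n = 3), that is from place 6333 to place 62 among the 8703 genes of the table. LOXC took 0.245% ± 0.000723 of all reads in jmj7 (SD, n = 3).

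LOXF, also a 13-lipoxygenase gene, moved the other way. It had 74.9, 81.5 and 96.3 normalized counts in WT and 1.88, 2.63 and 0 in jmj7. No jmj7 library reached the lowest WT library. The log2 fold change was -5.68 ± 0.796 (SE, n = 3 per group; edgeR adjusted p = 2.31e-15). It rests on 300 reads in WT and 4 in jmj7, and the pooled ratio of 55.4-fold has an exact 95% counting interval from 21.4-fold to 205-fold lower. Such intervals cover counting error only.

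LOXC and LOXF are close copies. In the reference gene table (assembly SLM_r2.1, chromosome 1) only 1 gene, Hcr9-0, lies between them. The sources used here do not say how reads that match both copies were counted, and the values of LOXC and LOXF are uncertain to that extent. The counts bear on this in jmj7. Of 166784 reads on both rows there, 4 were on LOXF, a share of 0.00240% with an exact 95% interval from 0.000653% to 0.00614%. At most that share of the reads of LOXC can have been counted on LOXF. In WT 300 of 534 reads were on LOXF, a share of 56.2% (exact 95% interval from 51.9% to 60.4%). How many of the 234 LOXC reads in WT came from LOXF transcripts cannot be told apart. These shares are not corrected for gene length. In FPKM, which is, the mean of LOXF was 2.42 times that of LOXC in WT.

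The sum of both rows does not depend on how reads were split between them. It would differ if reads that match both copies were dropped or counted on both rows, which is not known. It was 135, 158 and 159 normalized counts in WT and 63892, 63671 and 63689 in jmj7. The sum thus rose 423-fold between pooled groups, with a log2 fold change of 8.72 ± 0.0653 (SE, n = 3 per group; edgeR adjusted p = 1.58e-48). Within each library the log2 ratio of LOXC to LOXF normalized counts, each plus 1, was -0.31, -0.084 and -0.61 in WT and 14.44, 14.10 and 15.96 in jmj7. These ratios are not corrected for gene length. The groups did not overlap, and the exact two-sided permutation test gave p = 0.1, the smallest that 3 against 3 allows.

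The FPKM values also show the gene lengths that the authors used, because reads divided by FPKM and by the library total gave a whole number of bases for each of the 8703 genes, within 0.01 base. These lengths were 2864 bases for LOXC and 1500 for LOXF. The other lipoxygenase rows had 3041 bases (LOXA), 2665 (LOXB) and 4448 (LOXD), and HPL had 1931. The LOXF row was thus the shortest of the 6. Solyc01g006565.1, the next locus number in the table after LOXF, had a length of 722 bases. It had 26.7, 21.5 and 24.4 normalized counts in WT and 0 reads in all jmj7 libraries. Taking 3 reads over the jmj7 group as the floor, the fall was at least 21.2-fold. Solyc01g006520.3, on the other side of LOXC, fell 8.95-fold. Of the 5 rows between locus numbers Solyc01g006440 and Solyc01g006660, 4 were tested. LOXC was the 1 that rose and 3 fell, against 37.2% higher and 62.8% lower over all genes tested. The fifth, Solyc01g006660.2, was below the low-count filter with 15 reads in WT and 1 in jmj7.

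LOXA and LOXB encode 9-lipoxygenases, and they moved in opposite directions. LOXA had 54078, 53715 and 53371 normalized counts in WT and 9726, 9422 and 9389 in jmj7. All WT libraries stood far above the highest jmj7 library. The log2 fold change was -2.50 ± 0.0330 (SE, n = 3 per group; edgeR adjusted p = 5.85e-38). LOXB had 18036, 18384 and 18036 normalized counts in WT and 156661, 148552 and 147956 in jmj7. The jmj7 values were all higher, and replicate 1 was the highest of them. The log2 fold change was 3.06 ± 0.0332 (SE, n = 3 per group; edgeR adjusted p = 2.59e-40). LOXB alone took 0.581% ± 0.0192 of all reads in jmj7 (SD, n = 3).

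LOXB lies on chromosome 1 beside other rows that rose. The window from Solyc01g099140 to Solyc01g099240 was chosen after its values had been seen, so it is given as a description. It holds 6 rows, LOXB included, and 6 were higher in jmj7, against 37.2% of all genes tested. Loci of the window with no row, such as Solyc01g099200 and Solyc01g099210, were not analysed here. LOXE (Solyc01g099160.3), another lipoxygenase gene, had 228, 243 and 257 normalized counts in WT and 3089, 2928 and 2872 in jmj7, which is 12.2-fold higher. Solyc01g099150.4 rose 269-fold on 21 reads over the WT libraries, and the other 3 rose between 5.52-fold and 13.4-fold. In the reference, 3 genes lie between LOXE and LOXB. Whether these rows share reads was not tested. LOXB had 396715 reads over the jmj7 libraries and LOXE 7786.

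LOXD encodes the 13-lipoxygenase that supplies jasmonate synthesis in wounded tomato leaves. It had 1544, 1597 and 1532 normalized counts in WT and 197, 211 and 176 in jmj7. All WT libraries stood above all jmj7 libraries. The log2 fold change was -3.00 ± 0.0764 (SE, n = 3 per group; edgeR adjusted p = 5.43e-31). HPL had 3214, 3089.7 and 3258 normalized counts in WT and 6633, 6386 and 6310.2 in jmj7, so the groups lay closer together than for any other of the 6 but did not overlap. Its log2 fold change was 1.02 ± 0.0378 (SE, n = 3 per group; edgeR adjusted p = 3.29e-24). In the authors' deposited table the log2 fold change of HPL is 1.02, just above their selection limit of 1.

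In FPKM the changes were shifted, because FPKM scales by the library total. Relative to the deposited size factors this moves each log2 fold change by -0.56. HPL went from 93.5 ± 3.10 FPKM in WT to 128 ± 3.44 in jmj7 (SD, n = 3), which is 1.37-fold higher. On the log2(FPKM + 0.1) scale its difference was 0.46 ± 0.0361 (SE; limma adjusted p = 7.54e-06). LOXA was 8.31-fold lower in FPKM and LOXD 11.8-fold lower. LOXB was 5.66-fold higher and LOXC 651-fold higher. LOXF went from 3.18 ± 0.397 FPKM to 0.0386 ± 0.0348 (SD, n = 3), and its difference of -4.59 on the log2(FPKM + 0.1) scale understates the fold. All 6 passed limma's test, as did 99.5% of the 6776 genes with at least 1 FPKM in 3 libraries.

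**Figure D2:**
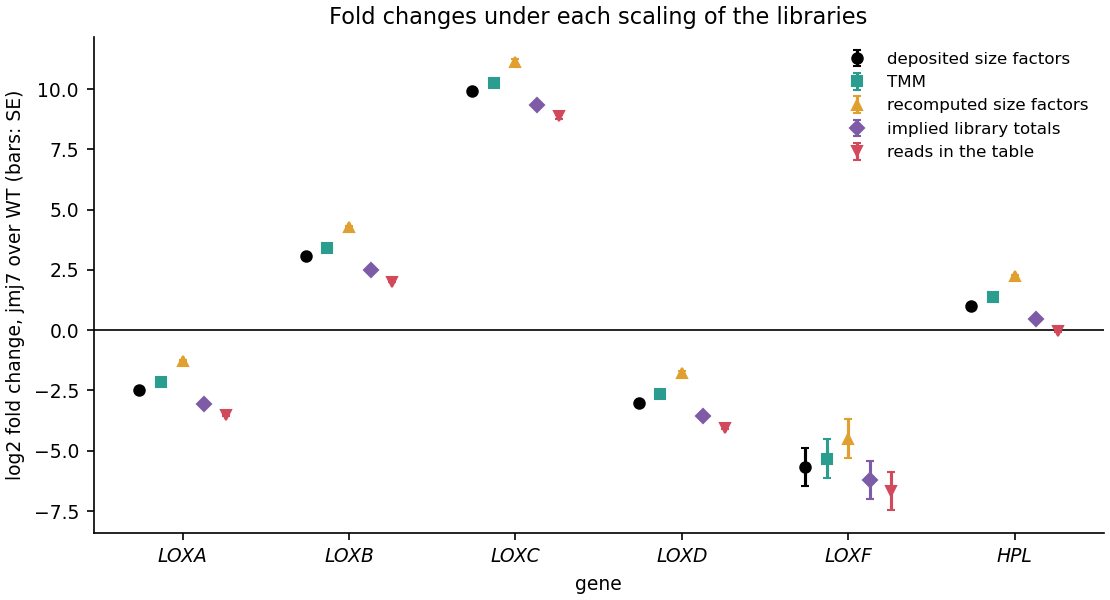
Log2 fold change, jmj7 over WT, of each gene under 5 scalings of the libraries; bars are the SE of the fit. The 5 lipoxygenase genes stay on their side of 0, and HPL runs from -0.025 with the reads in the table to 2.24 with recomputed size factors.

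The order of levels in FPKM changed between the groups, and only HPL kept its place. In WT LOXA was highest at 1001 ± 15.5 FPKM, then LOXB at 386 ± 3.23, HPL, LOXD at 19.8 ± 0.373, LOXF and LOXC (SD, n = 3). In jmj7 LOXB was highest at 2182 ± 71.9 FPKM, then LOXC, HPL, LOXA at 120 ± 2.45, LOXD at 1.68 ± 0.150 and LOXF (SD, n = 3). The ranges of neighbours in these orders did not overlap in either group. The closest pair was HPL and LOXA in jmj7, at 126 to 132 FPKM against 119 to 123, a ratio of means of 1.07.

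Shares within the family do not depend on the scaling of the libraries. Of the summed FPKM of the 5 lipoxygenase genes, LOXA made up 70.9% ± 0.286 in WT and 3.81% ± 0.0150 in jmj7 (SD, n = 3). LOXB made up 27.3% ± 0.243 in WT and 69.0% ± 0.593 in jmj7, and LOXC 0.0933% ± 0.0122 and 27.1% ± 0.578. LOXD fell from 1.41% to 0.0533% of the sum. The groups did not overlap for any of the 5 shares, and each exact two-sided permutation test gave p = 0.1, the smallest that 3 against 3 allows. Within a library LOXA stood 2.59 times above LOXB in WT, and LOXB stood 18.1 times above LOXA in jmj7 (means of the log2 ratio, n = 3). LOXC was 71.4 times below HPL in WT and 6.67 times above it in jmj7. The summed FPKM of the 5 genes was 1411 ± 17.2 in WT and 3161 ± 76.7 in jmj7 (SD, n = 3), which is 2.24-fold higher on the FPKM scale.

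**Figure D3:**
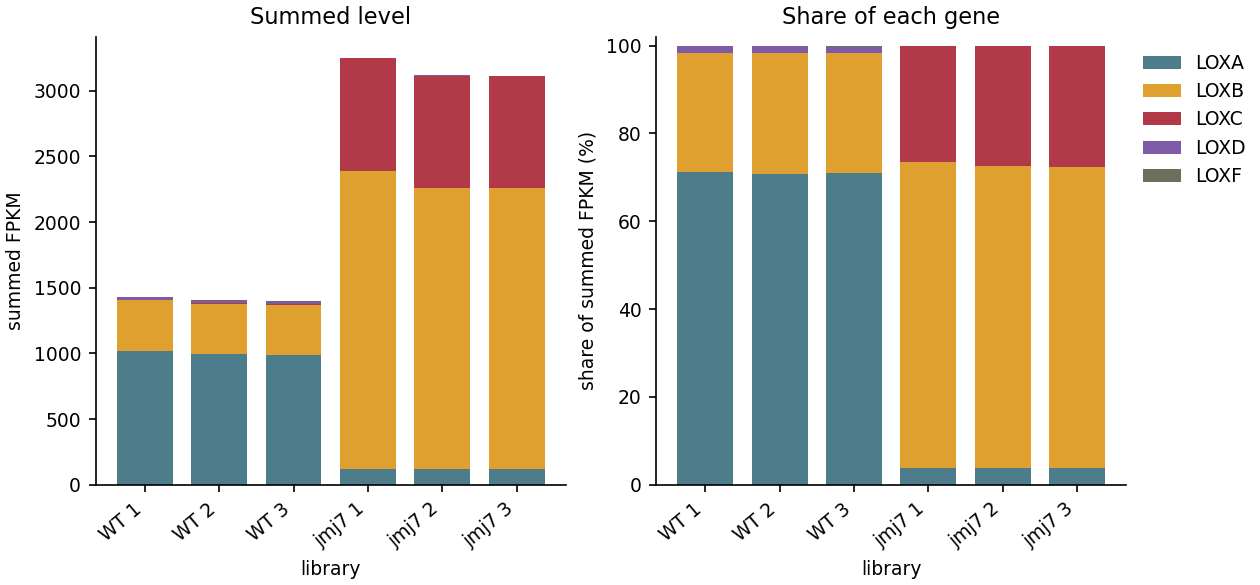
Left, FPKM of the 5 lipoxygenase genes stacked for each of the 6 libraries; right, the share of each gene in that sum in percent. LOXA makes up 70.6% to 71.2% of the sum in WT, and LOXB makes up 68.6% to 69.7% in jmj7.

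Other lipoxygenase loci were taken from a list of 10 identifiers, of which 4 have a row in the table and 6 were not analysed here. Of the 4, 2 rose and 2 fell, against 37.2% and 62.8% of all genes tested. LOXE and Solyc01g099180.3 rose. Solyc09g075860.3 fell 10.1-fold, and Solyc12g011040.2 fell as well, with 1604, 1447 and 1513 normalized counts in WT and 0.938, 0 and 6.33 in jmj7. Its log2 fold change was -9.30, and -11.16 without jmj7 replicate 3. Apart from LOXE these were listed without a symbol and were not looked up in the reference, so that they are lipoxygenases was not checked. With all 9 rows in the sum, LOXB made up 68.1% ± 0.597 and LOXC 26.7% ± 0.566 of the FPKM in jmj7.

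The tested genes from a list of jasmonate synthesis and related enzymes fell in jmj7, as LOXD did. Of the 8 genes on that list, 4 were tested and 4 fell, against 62.8% of all genes tested. AOS2, AOS3, ACX1A and JAR1 have no row, so they were not among the genes that the authors kept. They were not analysed here, and only genes already selected as different could be tested. AOS1 (Solyc04g079730.1), an allene oxide synthase gene, had 360, 369 and 371 normalized counts in WT and 30.03, 32.9 and 35.4 in jmj7. AOC (Solyc02g085730.3), the allene oxide cyclase gene that acts next, fell 6.71-fold; its normalized counts were 7257 to 7500.4 in WT and 1082 to 1128 in jmj7. OPR3 (Solyc07g007870.3), the reductase of the jasmonate precursor, had the largest fall of these 4 with the deposited size factors. It had 4071, 4222 and 4101 normalized counts in WT and 82.6, 63.2 and 78.5 in jmj7, with a log2 fold change of -5.77 ± 0.103 (SE, n = 3 per group; edgeR adjusted p = 8.25e-40). OPR1 (Solyc10g086220.2), a related reductase gene, fell 7.50-fold. Whether OPR1 and AOS3 act in jasmonate synthesis was not checked. The median log2 fold change of the 4 was -3.20, against -1.43 over all genes tested.

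Of 14 listed genes of jasmonate perception and response, 10 have a row, 8 were tested, 1 rose and 7 fell. Of all genes tested 62.8% fell, and the median log2 fold change was -5.06 over the 8 and -1.43 over all. The one that rose was COI1 (Solyc05g052620.3), the jasmonate receptor, with 782 to 806 normalized counts in WT and 2145 to 2235 in jmj7. JAZ3 (Solyc03g122190.3), a JAZ repressor of jasmonate responses, had 2693, 2709.6 and 2643 normalized counts in WT and 203, 205 and 199.9 in jmj7, a fall of 13.2-fold. JAZ2 (Solyc12g009220.2), also a repressor gene, fell 61.2-fold on 9 reads over the jmj7 libraries. Without jmj7 replicate 3, which holds 7 of these reads, its log2 fold change moved from -5.94 to -7.49. The other 5 that fell were listed as 4 JAZ genes and a leucine aminopeptidase gene, and the reference does not hold these symbols. Among them Solyc11g011030.2 had 1105 reads in WT and 0 in jmj7, a fall of at least 272-fold with that floor. MYC2, the transcription factor of the pathway, has no row in the table.

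Of 3 further listed genes of volatile formation from fatty acids, 2 were tested and both rose, against 37.2% of all genes tested. AAT1 (Solyc08g005770.3), an alcohol acyltransferase gene of ester formation, had 43.9, 40.3 and 32.9 normalized counts in WT and 42221, 46943 and 46040.3 in jmj7. Solyc09g091050.3, listed as a lipase gene that the reference could not check, rose 5.05-fold. ADH2, an alcohol dehydrogenase gene of fruit aroma, has no row. AAT1 was also the gene whose profile lay nearest to LOXC among the 8703 genes. The distance was 0.66 (Euclidean, log2(FPKM + 0.1) over 6 libraries), and the levels of AAT1 were 1.04 ± 0.158 FPKM in WT and 820 ± 44.8 in jmj7 (SD, n = 3). The next was Solyc01g088400.3 at a distance of 1.15. For LOXF the nearest were Solyc10g011940.1 at 0.28 and Solyc06g082910.3 at 0.46. With 3 libraries in each group such a distance mostly reflects the 2 group levels.

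**Figure D4:**
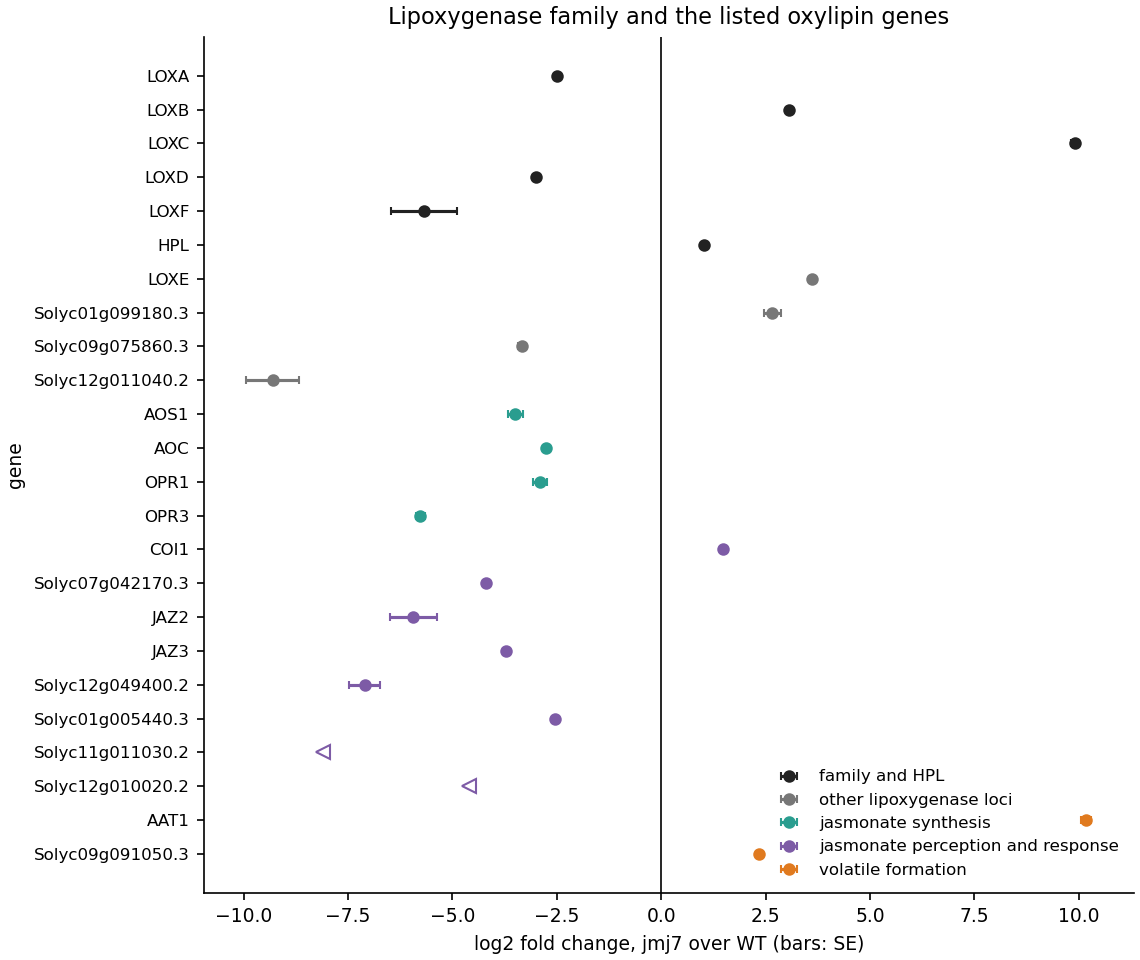
Log2 fold change, jmj7 over WT, for the 6 genes and the tested genes of the other-lipoxygenase, jasmonate and volatile lists (the ripening and epidermis markers are not drawn); points are fitted values with SE, and open triangles are lower bounds on the fall of genes with 0 reads in jmj7. Of the genes drawn, LOXC at 9.91 and AAT1 at 10.18 lie farthest to the right. The 4 genes drawn as jasmonate synthesis, OPR1 included, lie between -2.75 and -5.77.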

How the data were processed

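RNA sequencing of 6 pericarp libraries, 3 WT and 3 jmj7, was analysed. Reads were aligned with HISAT2, per the submitters' processing notes; for the build, counter and strand setting nothing was given in the sources used here. The deposited table holds the authors' read counts and FPKM per gene and library, per the file headers. Another signal was deposited, made by the authors by dividing the count by a size factor (0.759 to 1.31 per library); it is called the normalized count here. Also deposited are the log2 fold change of each gene and its p-value, at most 0.0499. The authors' FPKM values gave the library totals and gene lengths.

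Read counts went into edgeR 4.0.16, run in R 4.3.3 (glmQLFTest, prior count 0.125, filterByExpr minimum count 10, deposited size factors, Benjamini-Hochberg over 7622 genes). The SE is a Wald error, never below the Poisson error. FPKM were tested with limma 3.58.1 on log2(FPKM + 0.1). On simulated counts for 7434 genes, edgeR called 74.5% of the 1.5-fold and 94.0% of the 2-fold changes, with 9 false among 188 calls. The simulation changed only a small part of the genes and gave all genes the same spread. In the real data every gene tested was called, so these rates need not hold there. DESeq2 1.42.0, other scalings, no low-count filter, a replicate block and leaving out each library were alternatives.

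The members and lists were chosen with earlier results of these data known. All 6 genes were named, as were listed genes whose symbol the reference (SLM_r2.1) has on the identifier's chromosome. Of 49 identifiers, 26 were checked so, 12 were absent, 9 had no symbol and 2 were contradicted and dropped. All rows around LOXC and LOXF and the 2 nearest profiles to each were named too. Replicate pairs differed by more than sampling noise (chi-square per gene 1.63 to 3.63). Nothing says that they were separate plants, so p-values measure the spread between these libraries only, which may be technical.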

Additional observations from a re-analysis of the deposited data

How the results depend on the processing

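Of 467 log2 fold changes under alternatives, 466 kept their direction and their side of the threshold. The exception was HPL, which was -0.025 (edgeR adjusted p = 0.542) when scaled by the reads in the table; that scaling moved the median log2 fold change of all genes by -1.04. The shift was 0.36 with TMM, 1.23 with size factors recomputed over the table and -0.56 with the implied library totals, a scaling chosen after seeing the data. LOXA was then -2.14, -1.27 and -3.05, and LOXC 10.27, 11.14 and 9.35. All 226 counts of called members stayed within 1.5 times the count reported, a wide limit for small counts. Of the 6 genes, 3 were called higher, and 2 when scaled by the reads in the table. In FPKM, 2 to 3 of them were called lower when a library was left out. Every gene of the table was selected for a difference, which limits what such stability shows. The difference in the log2 ratio of LOXC to LOXF was 15.17, and 13.84 with FPKM and a pseudocount of 0.1, as LOXF is near 0 in jmj7. Leaving out each library gave 9.85 to 10.01 for LOXC and -6.15 to -5.20 for LOXF. In FPKM, LOXF was not tested without a WT library, since fewer than 3 libraries then reach 1 FPKM. Same-numbered libraries did not deviate together (correlations -0.00819, 0.0229 and -0.00512). With the replicate block, LOXC had a log2 fold change of 9.91 and HPL of 1.02, and the block left 2837 genes higher and 4785 lower, as without it. The 4 jmj7 reads limit LOXF.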
